A study of Homo sapiens with 8 samples.

Results

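The comparison described here is induction of the SF3B1-K700E transgene in the K562 line that carries it. Its members are the 4 libraries, of 8 in the series, whose labels give that transgene: 2 from cells induced with doxycycline at 1 ug/ml for 48 h (induced replicates 1 and 2) and 2 from the same line left uninduced (uninduced replicates 1 and 2). The other 4 libraries come from K562 cells with an SF3B1-WT transgene, induced or not in the same way, and share the estimate of spread. Within the K700E line, doxycycline and the induced transgene cannot be told apart. K562 is an established human erythroleukaemia line that carries the BCR-ABL fusion and makes embryonic and fetal globins. The labels name neither clones nor separate cultures, so p-values cover the spread among these libraries alone, and that spread may be technical. The series gives its purpose as following expression and splicing when wild-type or K700E SF3B1 is induced.

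SF3B1 is the largest protein of the SF3B complex, which holds the U2 small nuclear ribonucleoprotein on the branch point of an intron before the downstream acceptor site is chosen. K700E is the substitution found most often in SF3B1 in myelodysplastic syndromes with ring sideroblasts. The mutant protein is known for the use of cryptic acceptors a short way upstream of the normal ones, which can lower the RNA of the affected gene through nonsense-mediated decay.

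A gene's level is given in FPKM, fragments normalised to transcript length and to the fragments of the library, summed over the gene's transcripts and scaled between libraries by factors from 0.979 to 1.03. Fold changes are on the scale of log2(FPKM + 0.5), which understates the change of low genes, and come from limma over 11357 genes with a mean of 1 FPKM or more in the 8 libraries. The threshold was a Benjamini-Hochberg adjusted p of 0.05. Read totals are not used here. For long reference transcripts of 10 to 100 FPKM, the distance from the value to either end of the authors' interval was typically between 6.20% and 6.60% of the value in the 4 K700E libraries, an error that covers estimation within a library only. All 11 genes of a K562 list, globins and erythroid factors among them, had a mean of 1 FPKM or more, while MPO, CD14 and ITGAM of the myeloid list and CD3E and MS4A1 of the lymphoid list were listed at 0 in all 4 libraries. Other members were not: 3 of 8 myeloid and 3 of 6 lymphoid markers had a mean of 1 FPKM or more.

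SF3B1 itself was at 29.0 and 39.4 FPKM in the induced libraries and at 33.6 and 31.0 in the uninduced ones. The groups overlapped, at 0.06 on the log2 scale with SE 0.37 (adjusted p = 1 in limma). The sign depended on induced replicate 2, without which the log2 fold change was -0.15. The gene lies on chr2:198256698-198299771 (hg19, minus strand), and whether transgene RNA is counted in this value is not given in the sources used here.

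Of 11357 genes tested, 1 passed the threshold on induction (0.00881%): MIR4461, a microRNA gene on chr5:134263729-134263802 (hg19, plus strand) with a deposited transcript of 74 nt. MIR4461 was at 62718 and 65830 FPKM in the induced libraries and listed at 0 in both uninduced and all 4 SF3B1-WT libraries (limma adjusted p = 7.6e-06), so no fold is given. Its mean passed the filter only through the 2 induced libraries. The groups listed at 0 throughout added no spread to the fit, so that p says little of agreement between replicates. Its deposited intervals ran from 0 to 188227 and from 0 to 198104, and thus both included 0. With coverage times length as the gene value, a sum that does not divide by the short length, its adjusted p was 0.071. A transcript this short takes a very high FPKM from little coverage, and how far that sets its level was not tested. An unadjusted p under 0.05 was found for 535 genes (4.71%). The difference between the K700E and SF3B1-WT inductions passed for 2 genes (0.0176%), MIR4461 and VTRNA1-3.

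ACAT2, which makes acetoacetyl-CoA in the first step of the sterol pathway, came next. It was listed at 0 in both induced libraries and at 30.7 and 27.6 FPKM in the uninduced ones (limma adjusted p = 0.069). Such all-or-none listing was common: 93 genes were at 0 in both induced libraries and above 0 in both uninduced ones, and 64 the other way. Exactly 1 of the 2 induced libraries was at 0 for 1051 genes, and exactly 1 of the 2 uninduced ones for 919.

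The replicates shared little of their differences. In 9459 genes above 0 in all 4 libraries, the difference between induced and uninduced in replicate 1 had a Pearson correlation across genes of 0.07, and a Spearman correlation of 0.06, with that in replicate 2. Both replicates moved the same way in 4981 of these genes (52.7%). Among 1472 of them with a mean of 50 FPKM or more the correlations were 0.13 and 0.16. Genes are not independent replicates, and replicate numbers pair the libraries by label only, so these values are descriptions without a p. The median standard error of a log2 fold change was 0.75 over all genes tested and 0.28 over 163 genes with a mean of 500 FPKM or more, so precision was best for abundant genes.

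**Figure D1:**
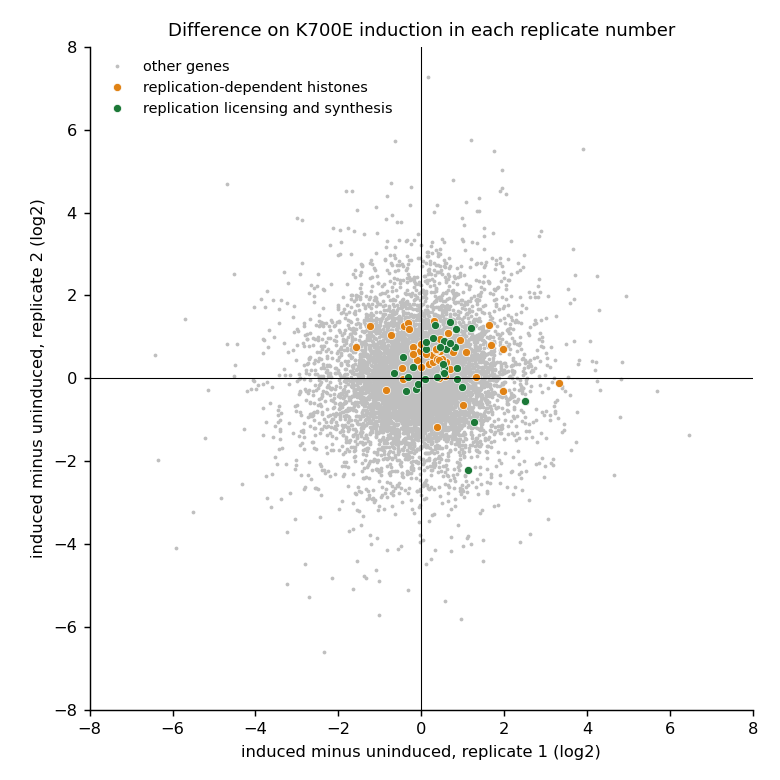
Each point is 1 of 9459 genes above 0 in all 4 K700E libraries, with the log2 difference between induced and uninduced in replicate 1 on the x axis and in replicate 2 on the y axis. Grey points are other genes, orange points replication-dependent histones and green points replication licensing and synthesis genes. The Pearson correlation over all points is 0.07. Median differences over all 53 histone genes tested, drawn or not, are 0.36 in replicate 1 and 0.62 in replicate 2.

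A description that needs no model is whether the libraries of the 2 groups overlap. Both induced libraries were above both uninduced ones in 1822 genes (16.0% of those tested) and below both in 2026 (17.8%). In the SF3B1-WT line the same counts were 1720 (15.1%) and 1597 (14.1%). These shares are the background against which the counts in each gene list below are read.

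Among genes with a transcript of 300 nt or more, the 20 most abundant had ratios of the induced to the uninduced group mean from 0.697 to 1.38, and 5 of them had groups that did not overlap. Their log2 fold changes ran from -0.51 to 0.46, and the smallest unadjusted p was 0.12, for H2AC11. Of the 20, 10 encode ribosomal proteins. RPPH1, the RNA subunit of ribonuclease P, was highest, at 102117 and 90805 FPKM induced and 118227 and 78431 uninduced, and the groups overlapped.

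HBG2, a fetal gamma globin, was at 2812 and 3309 FPKM in the induced libraries and 3811 and 4973 in the uninduced ones. Both induced libraries were lower, and the log2 fold change was -0.51 with SE 0.38 (adjusted p = 1 in limma). FTL, the light chain of the iron store ferritin, was also lower in both, at 2295 and 2230 against 2713 and 2676 (-0.25). HBA1, an alpha globin, was at 2252 and 3975 against 2059 and 3283, so its replicates differed more than its groups. H2AC11, a replication-dependent histone H2A gene, was at 2036 and 2370 FPKM induced and 1597 and 1599 uninduced, the highest fold change of the 20 (0.46, SE 0.26). RPS27, a small-subunit ribosomal protein gene, was at 2240 and 2160 against 1800 and 1895 (0.25). EEF1A1, which delivers aminoacyl-tRNA to the ribosome, and RPS2 had groups that overlapped.

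**Figure D2:**
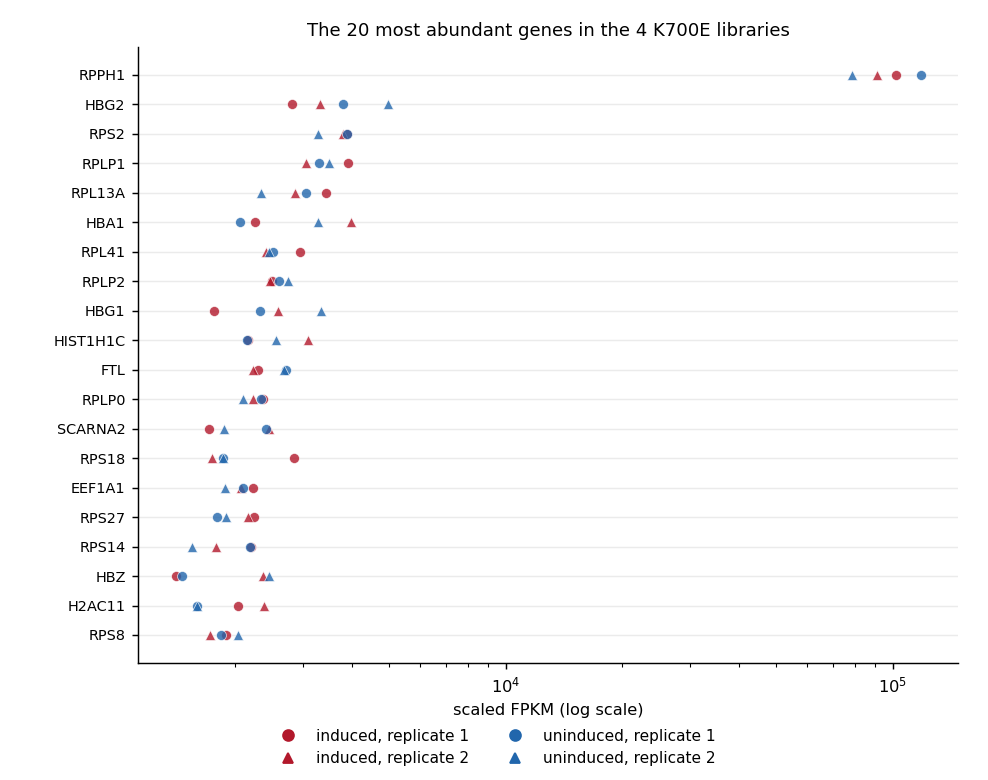
The 20 genes with the highest mean in the 4 K700E libraries and a transcript of 300 nt or more, on a log axis of scaled FPKM. Red marks are induced and blue marks uninduced libraries, with circles for replicate 1 and triangles for replicate 2. HBG2 and FTL show both red marks left of both blue ones, and H2AC11 and RPS27 show the reverse.

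Of the replication genes tested, 16 of 32 were higher in both induced libraries. The list holds 32 genes of origin licensing and DNA synthesis: the origin recognition complex, the MCM helicase and its GINS and CDC45 partners, the clamp PCNA and its loader RFC, and polymerases. Of these, 25 had a log2 fold change above 0 and 7 below, with a median of 0.40, against -0.01 and 48.4% above 0 over all genes tested. The background for those 16 is 16.0%, and 2 members were lower in both (17.8%). No member passed the adjusted threshold. The median was 0.52 in replicate 1 and 0.25 in replicate 2, and 0.10 on SF3B1-WT induction. With reference transcripts alone the median was 0.25, and with coverage times length 0.33.

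GINS2, a subunit of the replicative helicase, was at 49.7 and 45.1 FPKM in the induced libraries and at 21.2 and 19.2 in the uninduced ones. The replicates lay close together in both groups, and the log2 fold change was 1.21 with SE 0.47 (adjusted p = 0.995 in limma). It depended on the transcripts summed, and was 3.93 with reference transcripts alone. PCNA, the sliding clamp of DNA polymerases, was at 94.3 and 142 against 52.8 and 62.4 (1.01). With reference transcripts alone PCNA took the opposite sign (-2.59). MCM10, which loads onto origins after licensing, was at 26.2 and 30.7 against 16.0 and 11.7 (1.02).

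RPA2, of the single-strand binding complex, was at 57.3 and 87.2 FPKM induced and 35.5 and 48.1 uninduced (0.77). MCM6 was at 37.1 and 54.5 against 24.6 and 33.1 (0.65), and MCM7, the most abundant of the list, at 277 and 245 against 192 and 222 (0.33). In MCM6 and MCM7 both induced libraries were higher, as in MCM3 and MCM4 (0.40 and 0.41), while MCM2 and MCM5 of the same helicase had groups that overlapped, with log2 fold changes of -0.15 and 0.04. With reference transcripts alone MCM3 took the opposite sign (-0.50), and MCM6 (0.08) and RPA2 (0.01) were near 0. The sign of MCM2 without induced replicate 1 (0.05), and that of MCM5 without induced replicate 2 (-0.13) or uninduced replicate 2 (-0.26) or with reference transcripts alone (-0.05), was also the opposite.

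FEN1, the flap endonuclease of Okazaki fragments, went against the list. It was at 4.01 and 0 FPKM in the induced libraries and 34.1 and 37.2 in the uninduced ones, a log2 fold change of -4.59 with SE 0.93 (adjusted p = 0.881 in limma). CDC45 was the other member lower in both induced libraries, at 144 and 162 against 187 and 202 (-0.34), with the opposite sign in reference transcripts alone (0.21).

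**Figure D3:**
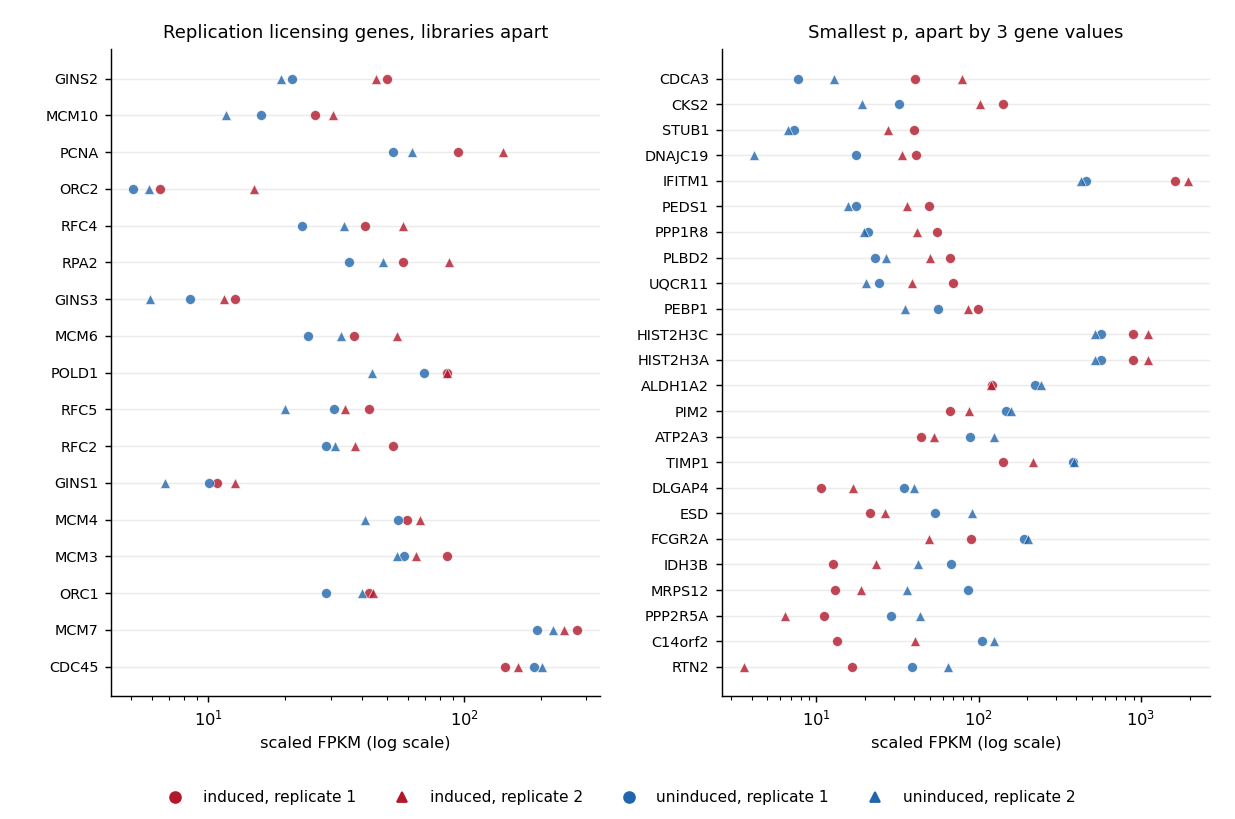
Scaled FPKM on a log axis for 17 replication licensing genes above 0 in all 4 libraries with groups that did not overlap (left) and for 24 genes with small p-values whose groups stayed apart by 3 kinds of gene value (right). Red marks are induced and blue uninduced libraries, circles replicate 1 and triangles replicate 2. All genes on the left but CDC45 have both red marks to the right.

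E2F factors are known to drive replication genes, and many promoters of the list hold E2F-type letters. Promoters of MCM7 and PCNA are shown as the 2 most abundant members that hold the letters and were higher in both induced libraries. The letters searched were TTTCCCGC, TTTCGCGC, TTTGCCGC and TTTGGCGC, each on both strands, in the 300 bases from 250 before to 50 after the start of the gene. RefSeq (GRCh38.p14) gave a promoter for 27 of the 32 genes, and 15 of those 27 held the letters (55.6%). Over all 27305 promoters the share was 3.33%, and over 8373 promoters of genes tested it was 5.73%. The mitosis list had 2 of 25 and the proteasome list 2 of 26. A match is a description of sequence only. Of members higher in both induced libraries, GINS1, GINS2, GINS3, MCM3, MCM6, MCM7 and PCNA held the letters. MCM10, ORC1, ORC2, POLD1, RFC2, RFC4 and RFC5 lacked them and were also higher in both. CDC6, CDT1, LIG1, MCM2, ORC3, POLA1, POLE and RFC3 held the letters, and their groups overlapped. The letters were thus found in members higher on induction and in members that were not. Capitals mark the letters found, read 5′ to 3′ on the strand of the gene, both minus, at chr7:100101348-100101647 for MCM7 and chr20:5126573-5126872 for PCNA.
MCM7: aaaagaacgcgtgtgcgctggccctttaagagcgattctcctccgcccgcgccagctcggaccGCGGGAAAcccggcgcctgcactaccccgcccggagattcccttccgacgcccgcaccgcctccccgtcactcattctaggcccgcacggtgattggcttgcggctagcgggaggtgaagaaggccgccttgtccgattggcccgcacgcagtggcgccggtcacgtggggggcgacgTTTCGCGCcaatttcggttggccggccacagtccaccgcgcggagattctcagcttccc
PCNA: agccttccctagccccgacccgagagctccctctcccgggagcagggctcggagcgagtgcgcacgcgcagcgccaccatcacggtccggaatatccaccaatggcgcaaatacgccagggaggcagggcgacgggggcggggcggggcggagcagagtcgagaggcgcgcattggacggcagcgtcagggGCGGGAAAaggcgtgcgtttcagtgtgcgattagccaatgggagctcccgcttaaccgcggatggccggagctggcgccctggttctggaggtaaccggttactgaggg
MCM7 holds 2 matches and PCNA 1.

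Replication-dependent histone genes, whose transcripts carry no poly(A) tail and are made in S phase, could be measured in these libraries, which were depleted of ribosomal RNA. Of 53 tested, 45 had a log2 fold change above 0, with a median of 0.43 (0.36 in replicate 1, 0.62 in replicate 2, and 0.07 on SF3B1-WT induction). Both induced libraries were higher in 25 (background 16.0%) and lower in 2 (17.8%), and none passed the adjusted threshold. Many of these genes are near-identical copies whose fragments the authors' counting could split, so they are not separate measurements. The median without induced replicate 2 was 0.22.

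HIST1H1E, a linker histone, was at 1447 and 2016 FPKM in the induced libraries and 755 and 1059 in the uninduced ones. The lowest induced value was above the highest uninduced one, and the log2 fold change was 0.93 with SE 0.33 (adjusted p = 0.978 in limma). HIST1H1D, another linker histone, was at 157 and 95.8 against 50.4 and 39.3 (1.45). HIST1H1C, the most abundant histone gene, was at 2156 and 3078 against 2148 and 2549, and its groups overlapped.

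Among core histones, HIST1H4C (H4) was at 882 and 907 FPKM induced and 642 and 471 uninduced (0.70). HIST2H2BF (H2B) was at 846 and 882 against 493 and 569 (0.71). HIST2H3A and HIST2H3C, which encode the same H3 protein, shared the values 890 and 1108 in the induced libraries, and in the uninduced ones HIST2H3A was at 571 and 520 (0.86). With reference transcripts alone HIST2H3A was 5.88. HIST1H3B was at 1435 and 1678 against 1054 and 1064 (0.55), with the opposite sign in reference transcripts alone (-5.18). HIST1H4A went the other way, at 0 and 47.4 against 136 and 134.

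Mitosis genes had a smaller median. Of 31 tested, 21 were above 0, with a median of 0.26 (0.14 in replicate 1 and 0.34 in replicate 2), and both induced libraries were higher in 11 and lower in 3. On SF3B1-WT induction the median of this list was -0.09. CKS2, a small subunit that binds cyclin-dependent kinases, was at 142 and 101 FPKM induced and 32.3 and 19.1 uninduced, a log2 fold change of 2.25 with SE 0.54 (adjusted p = 0.978 in limma). In the SF3B1-WT line CKS2 was lower in both induced libraries, at 35.2 and 29.5 FPKM against 38.6 and 119 uninduced (-1.06). CCNB2 (cyclin B2) was at 76.0 and 102 against 55.2 and 68.6 (0.52). BUB1, a spindle checkpoint kinase, was at 39.5 and 47.5 against 30.5 and 26.2 (0.61), and CDC25B, a phosphatase that activates CDK1, at 46.9 and 45.0 against 31.4 and 31.5 (0.54). AURKA and TOP2A were lower in both induced libraries, with log2 fold changes of -0.35 and -0.21.

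Lists of ribosomal proteins, the proteasome, the CCT chaperonin and heat shock chaperones had medians between 0.10 and 0.27. Large-subunit ribosomal protein genes had 34 of 47 above 0, with a median of 0.10, and 16 higher and 6 lower in both induced libraries. Small-subunit genes had 20 of 31 above 0, with a median of 0.10, and 7 higher and 2 lower. The proteasome list had 23 of 31 above 0 (median 0.20), with 9 higher and 3 lower, and the CCT chaperonin, a folding ring for actin and tubulin, had 7 of 8 above 0 (median 0.27), with 2 higher and 1 lower. Heat shock chaperones had 13 of 18 above 0 (median 0.10), with 6 higher and 0 lower. None of these 5 lists had a member past the adjusted threshold. Other lists of protein synthesis lay near 0, with a median of 0.0072 for translation factors and 0.011 for tRNA synthetases.

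HSPA8, the constitutive HSP70, was at 436 and 378 FPKM induced and 305 and 326 uninduced (0.36). PSMD13, a lid subunit of the proteasome, was at 64.7 and 52.0 against 27.5 and 40.9 (0.78), and PSMC6, an ATPase of its base, at 32.0 and 30.4 against 19.8 and 18.6 (0.69). CCT4 was at 120 and 103 against 96.0 and 71.8 (0.42). RPS26, mutated in some cases of Diamond-Blackfan anaemia, was at 304 and 288 against 207 and 217 (0.48).

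Other ribosomal protein genes with large values depended on which transcripts were summed. RPL13 was at 255 and 1233 FPKM induced and 245 and 222 uninduced, so a single library set its log2 fold change of 1.26, and with reference transcripts alone the sign was opposite (-0.21). RPS19 did likewise, at 681 and 1373 against 538 and 643 (0.72, and -1.07 with reference transcripts alone). RPL27A was at 97.7 and 106 against 438 and 321 (-1.87, and 0.43 with reference transcripts alone).

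Splicing regulators of the SR and hnRNP families had 26 of 33 genes above 0 (median 0.12), with 8 higher and 4 lower in both induced libraries. HNRNPA2B1 was at 214 and 307 FPKM induced and 132 and 125 uninduced (0.99, limma adjusted p = 0.978), SRSF5 at 274 and 128 against 94.5 and 101 (0.93), and PCBP2 at 550 and 446 against 357 and 359 (0.47). All 3 took the opposite sign with reference transcripts alone (-1.23, -0.07 and -1.46). U2 and branch point factors, the partners of SF3B1, had 11 of 23 above 0 (median -0.03), with 4 higher and 3 lower. CHERP, a U2-associated protein, was at 107 and 68.2 against 32.4 and 39.2 (1.25, and 0.15 with reference transcripts alone, where its groups overlapped), and PUF60, which aids recognition of the pyrimidine tract, at 84.5 and 89.3 against 52.7 and 44.5 (0.84). SNRPA1, the U2 A' protein, was at 56.1 and 51.4 against 43.0 and 20.4 (0.85).

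**Figure D4:**
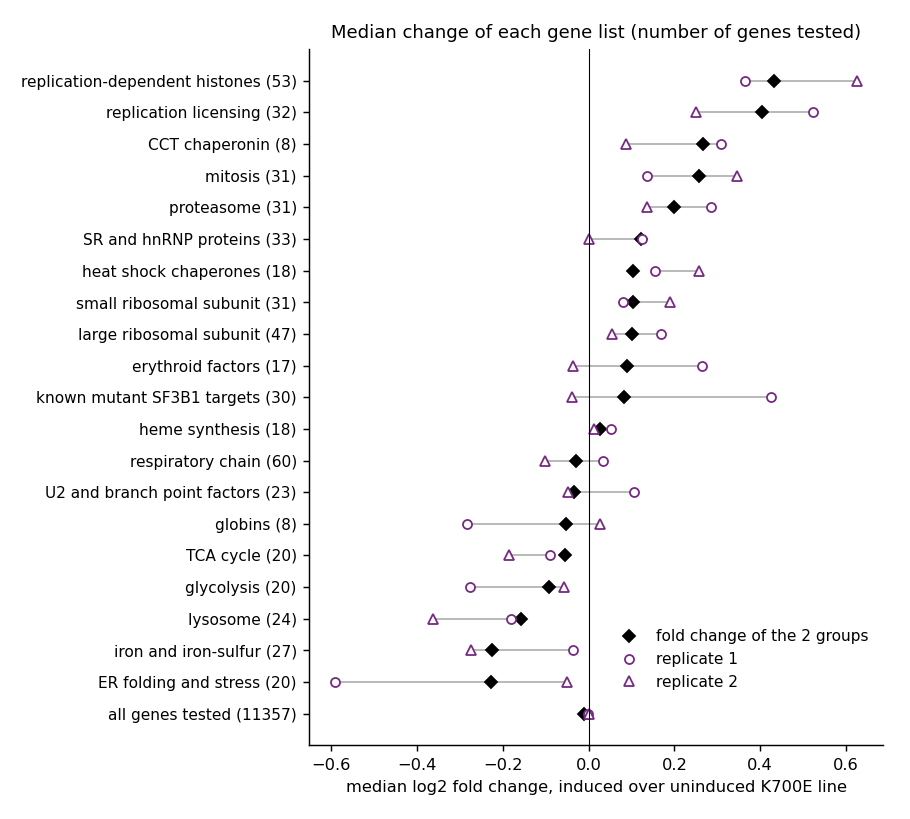
Median log2 fold change on K700E induction for 20 gene lists and for all genes tested, with the number of genes tested in parentheses. Black diamonds give the median of the fold changes between groups, open circles the median difference in replicate 1 and open triangles that in replicate 2. Histones and replication licensing lie farthest to the right, at 0.43 and 0.40, and all genes tested at -0.01.

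Genes known from other studies as targets of mutant SF3B1 were split between both directions. Of 30 tested, 17 were above 0 (median 0.08, with 0.42 in replicate 1 and -0.04 in replicate 2), with 6 higher and 5 lower in both induced libraries. PPP2R5A, a regulatory subunit of protein phosphatase 2A, was among the lower ones, at 11.2 and 6.40 FPKM induced and 28.9 and 43.7 uninduced. Both induced libraries were below both uninduced ones, at -2.01 on the log2 scale with SE 0.47 (adjusted p = 0.978 in limma), and by reference transcripts alone it was -1.81. TTI1 was at 13.4 and 5.75 against 19.7 and 17.6 (-1.04). SERBP1 was at 73.3 and 273 against 63.7 and 57.5, with 1 library far above the rest, and its log2 fold change of 1.22 was 0.0052 with reference transcripts alone. Without 1 library the median of the list ran from -0.06 to 0.34.

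Lists of endoplasmic reticulum folding, lysosome and iron had medians below 0. The endoplasmic reticulum list had 5 of 20 above 0 (median -0.23, with -0.59 in replicate 1 and -0.05 in replicate 2), none higher and 4 lower in both induced libraries. These counts are 0% and 20% of the list, beside 16.0% and 17.8% of all genes tested. HSPA5, the HSP70 of that compartment, was at 76.9 and 70.5 FPKM induced and 118 and 92.7 uninduced (-0.50, and 0.23 with reference transcripts alone), and XBP1, a factor of the unfolded protein response, at 41.7 and 67.4 against 83.4 and 68.6 (-0.51). SEL1L was at 9.37 and 8.02 against 14.1 and 25.7 (-1.09, and -0.05 with reference transcripts alone).

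The lysosome list had 6 of 24 above 0 (median -0.16), with 1 higher and 6 lower (4.17% and 25%, beside 16.0% and 17.8% of all genes tested). CD68 was at 3.26 and 5.71 FPKM against 26.4 and 16.2 (-2.13), LAMP2 at 6.50 and 7.63 against 18.8 and 18.2 (-1.33), and LAMP1 at 11.7 and 7.28 against 17.6 and 22.0 (-1.05). CD68 is a macrophage marker as well and belongs to the myeloid list, so the sum of that list holds its value. The 8 myeloid markers, of which 4 were at 0 in all 4 libraries, summed to 40.2 and 22.7 FPKM in the induced libraries and 69.3 and 50.4 in the uninduced ones. Their part in the lysosome result was not tested. In bulk RNA, fewer cells of a type and less RNA per cell cannot be told apart.

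Iron and iron-sulfur genes had 11 of 27 above 0 (median -0.22, and -0.04 over those above 0 in all 8 libraries), none higher and 6 lower in both induced libraries. These counts are 0% and 22.2% of the list, beside 16.0% and 17.8% of all genes tested. FTL, given above, was the only one of the 6 with a mean of 10 FPKM or more. Heme synthesis had 10 of 18 above 0 (median 0.03), with 4 in each direction. HMOX2, a heme oxygenase, was at 27.6 and 15.8 FPKM against 5.27 and 5.81 (1.83), and BLVRA, a biliverdin reductase, at 4.11 and 15.6 against 27.0 and 23.9 (-1.59). Globins had 3 of 8 above 0 (median -0.05), and without 1 library or another the median ran from -0.54 to 0.39.

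Erythroid transcription factors had 11 of 17 above 0 (median 0.09). TAL1 was at 47.5 and 42.0 FPKM induced and 29.9 and 24.1 uninduced (0.72), and RUNX1, a factor of early haematopoiesis, at 37.7 and 42.7 against 23.3 and 22.6 (0.79). ZFPM1, the cofactor FOG1 of GATA1, was at 11.1 and 7.06 against 18.4 and 45.2 (-1.65). None of the 3 passed the adjusted threshold. With reference transcripts alone TAL1 was 0.41 and ZFPM1 -0.09, and the groups of both overlapped.

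Energy metabolism lists had medians slightly below that of all genes. Glycolysis had 6 of 20 above 0 (median -0.09), with 4 higher and 5 lower in both induced libraries. The glycolysis median was -0.23 with reference transcripts alone, -0.15 with coverage times length and -0.27 on SF3B1-WT induction. ALDOA, an aldolase, was at 930 and 1183 FPKM against 1387 and 1452 (-0.44), ENO1 at 592 and 666 against 788 and 695 (-0.24), and GPI at 79.4 and 86.3 against 109 and 177 (-0.74, and 0.19 with reference transcripts alone). The TCA cycle had 7 of 20 above 0 (median -0.05), with 1 higher and 6 lower. IDH3B, a subunit of isocitrate dehydrogenase, was at 12.7 and 23.2 against 68.1 and 42.5 (-1.62). The respiratory chain had 27 of 60 above 0 (median -0.03), with 8 higher and 14 lower, among them UQCR11 of complex III at 70.0 and 38.7 against 24.5 and 20.2 (1.21) and NDUFA2 of complex I at 22.3 and 51.6 against 74.7 and 73.9 (-1.12).

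The highest fold changes were taken among 1327 genes that had no library of the 8 at 0, averaged at least 20 FPKM, had a transcript of 300 nt or more and groups that did not overlap. Because these genes were ranked by the fold change, their values are a description. TMA7 was at 95.2 and 103 FPKM induced and 85.1 and 0.17 uninduced, so the lone low library made its log2 fold change of 3.72. ORMDL3, a regulator of sphingolipid synthesis, was at 53.9 and 16.4 against 13.6 and 0.02 (3.48). TMEM134 (3.25), RPRD1A (2.98), PRR22 (2.80), MMAB (2.72), SYT5 (2.68), EXOSC4 (2.62), NIPA1 (2.52), CDCA3 (2.45), MNF1 (2.34) and POLB (2.32) followed. Of these 12, RPRD1A, SYT5, NIPA1 and MNF1 took the opposite sign with reference transcripts alone. On that basis ORMDL3 was 0.11, MMAB 0.37, TMEM134 0.95 and PRR22 1.36, each less than its value with assembled transcripts. On SF3B1-WT induction PRR22 (2.59) and TMA7 (0.80) were also higher in both induced libraries. MNF1 was lower in both there (-0.67), and the groups of the rest overlapped.

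The lowest was CCHCR1, at 14.9 and 0.56 FPKM induced and 47.7 and 35.0 uninduced (-3.36), again with a single library near 0. RTN2, a reticulon of the endoplasmic reticulum, was at 16.5 and 3.59 against 38.7 and 64.4 (-2.59). CD3D, a chain of the T cell receptor complex, was at 3.87 and 10.4 against 58.1 and 22.2 (-2.41). It is 1 of 6 lymphoid markers, which summed to 18.8 and 19.5 FPKM in the induced and 74.7 and 33.3 in the uninduced libraries, with CD3E and MS4A1 among those at 0. CD3D itself made up most of both uninduced sums, so these sums largely restate its value. The part of the other lymphoid markers in the CD3D result was not tested. RFNG (-2.57), STXBP5 (-2.36), C14orf2 (-2.26), STYXL1 (-2.17), VIMP (-2.11), SIRT6 (-2.05), FLAD1 (-2.05), PPP2R5A (-2.01) and FTSJ1 (-1.96) completed the 12, and CCHCR1 and FTSJ1 took the opposite sign with reference transcripts alone. On that basis RFNG was -0.17, VIMP -0.42, FLAD1 -0.97 and STXBP5 -1.20. On SF3B1-WT induction RTN2 (-0.53), CD3D (-1.16), C14orf2 (-0.93) and SIRT6 (-0.71) were also lower in both induced libraries. The groups of the rest of the 12 overlapped there.

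Of the 1327 genes, 731 kept groups apart in the same direction by all 3 gene values, FPKM with assembled transcripts, FPKM of reference transcripts alone and coverage times length: 350 higher and 381 lower. The genes with the smallest p among them were picked after their values were seen. IFITM1, an interferon-inducible membrane protein gene on chr11:313991-315272 (hg19), had the smallest. It was at 1621 and 1952 FPKM induced and 456 and 429 uninduced, and its 2 groups were far apart beside the gap between replicates. The log2 fold change was 2.01 with SE 0.38 (adjusted p = 0.881 in limma), and 1.87 to 2.14 with any 1 of the 4 libraries left out. The deposited interval of its transcript ran from 1600 to 1643 in induced replicate 1 and from 447 to 493 in uninduced replicate 1.

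CDCA3, a trigger of mitotic entry, was at 40.8 and 79.0 FPKM against 7.76 and 12.9. STUB1, a co-chaperone ubiquitin ligase, was at 40.2 and 27.6 against 7.26 and 6.70 (2.18). PEBP1, an inhibitor of RAF signalling, was at 98.8 and 86.5 against 56.4 and 35.2 (1.04). PEDS1, PLBD2, PPP1R8, DNAJC19 and UQCR11 were higher by 1.33, 1.21, 1.22, 2.05 and 1.21 on the log2 scale. On SF3B1-WT induction PEDS1 (0.47) and PLBD2 (0.44) were also higher in both induced libraries. PEBP1, DNAJC19 and UQCR11 were lower in both there, and the groups of CDCA3, STUB1 and PPP1R8 overlapped.

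TIMP1, an inhibitor of matrix metalloproteinases, was at 141 and 217 FPKM against 381 and 385 (-1.13). The 9 stromal and epithelial markers, with COL3A1, KRT5 and KRT14 at 0, summed to 147 and 87.5 FPKM in the induced and 282 and 222 in the uninduced libraries, and the 6 megakaryocyte markers, with PF4, PPBP and GP9 at 0, to 11.8 and 11.6 against 29.8 and 18.5. All 4 lists of other cell types had lower sums in both induced libraries, and their part in the genes lower on induction was not tested. The lymphoid sum holds CD3D and the myeloid sum CD68, so neither is separate from those genes. Only 1 of the 6 megakaryocyte and 3 of the 9 stromal and epithelial markers had a mean of 1 FPKM or more. The 11 genes of the K562 list summed to 7112 and 10442 FPKM induced and 8775 and 13785 uninduced. That sum was also lower on induction within each replicate number, though its groups overlapped. ALDH1A2, which makes retinoic acid, had replicates close together, at 122 and 120 against 223 and 243 (-0.95, SE 0.25, limma adjusted p = 0.978). PIM2, a survival kinase, was at 66.9 and 87.3 against 148 and 159 (-1.0). FCGR2A, an Fc receptor of myeloid cells, was at 89.6 and 49.2 against 189 and 202 (-1.55, and -0.78 with reference transcripts alone). C14orf2, MRPS12, ESD, DLGAP4 and ATP2A3 had log2 fold changes of -2.26, -1.80, -1.53, -1.43 and -1.11. On SF3B1-WT induction PIM2 (-0.61), FCGR2A (-0.61), C14orf2 (-0.93) and ATP2A3 (-0.54) were also lower in both induced libraries. DLGAP4 was higher in both there (0.28), and the groups of TIMP1, ALDH1A2, MRPS12 and ESD overlapped.

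Multi-isoform genes were followed through the transcript that held the largest share of the gene's FPKM. In 5981 genes with 2 or more transcripts that averaged at least 5 FPKM and were at 0 in no library, the 2 induced libraries named the same transcript in 53.4% and the 2 uninduced ones in 55.3%. Induced and uninduced replicate 1 did so in 54.4%, and replicate 2 in 54.5%. The values for libraries of 1 group thus lay on both sides of those for libraries of different groups. Cufflinks divides fragments among overlapping transcripts by estimation, and its part in these values was not tested. In all 4 libraries 1921 genes kept 1 transcript in the lead.

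Both groups were settled on a transcript of their own in 2045 genes, and it differed between induced and uninduced in 124 of them (6.06%). On SF3B1-WT induction the count was 124 of 1966 (6.31%). With reference transcripts alone the counts were 104 of 862 (12.1%) and 116 of 838 (13.8%). Over 20447 transcripts of 6144 genes, 0 shares passed limma's adjusted threshold, with a smallest adjusted p of 0.15, and 709 had an unadjusted p under 0.05 (3.47%).

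RPL10, a large-subunit ribosomal protein gene on chrX:153626571-153630680 (hg19, plus strand), was the most abundant of the 124 and held that smallest adjusted p. An assembled transcript of 757 nt (RPL10.asm1) took 79.9% and 84.6% of the gene in the uninduced libraries and 0% in the induced and the 4 SF3B1-WT libraries, where the reference transcript NM_006013 of 2318 nt held the gene. The assembled form has 5 of the 6 introns of the reference and none of its own. In FPKM the reference form was at 815 and 798 induced against 400 and 302 uninduced, while the gene as a whole was at 814 and 795 against 1931 and 2005, a log2 fold change of -1.29 that turned to 1.22 with reference transcripts alone. By coverage times length it was -0.12.

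In YIPF2, a Golgi membrane protein gene, assembled forms held the gene after induction. The reference transcript NM_024029 held all of the gene in both uninduced and all 4 SF3B1-WT libraries, at 31.5 and 53.8 FPKM in the uninduced ones, and was at 0 in both induced libraries. There, 2 assembled transcripts, YIPF2.asm2 in replicate 1 (52.0 FPKM) and YIPF2.asm1 in replicate 2 (57.8 FPKM), held the gene. Both contain the intron chr19:11033868-11033947 (hg19, minus strand, 80 nt), which ends at an acceptor 17 nt upstream of that of the reference intron (chr19:11033851-11033947, 97 nt) and was not listed in the other 6 libraries. The share of NM_024029 had a limma adjusted p of 0.902, and with reference transcripts alone YIPF2 was called as a gene.

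RFC1 and TMEM219 had leading forms that differ by 3 nt at 1 acceptor. RFC1, the large subunit of the clamp loader, had NM_001204747 at 25.8 and 20.2 FPKM in the uninduced libraries and 0 in the induced ones, and NM_002913 at 26.8 and 20.6 in the induced libraries and 0 in the uninduced ones. The acceptor of NM_001204747 lies 3 nt upstream (intron chr4:39308325-39310255). TMEM219, a membrane receptor gene, had NM_001083613, again with the acceptor 3 nt upstream (intron chr16:29973454-29974427), at 50.2 and 44.3 FPKM induced and 7.95 and 0 uninduced. Its other form NM_194280 was at 0 in both induced libraries and 39.1 and 77.2 in the uninduced ones. The upstream acceptor was thus in the leading form after induction in TMEM219 and before it in RFC1. In RFC1 all 4 SF3B1-WT libraries were led by NM_002913, as were the induced K700E libraries, and in TMEM219 NM_001083613 was at 0% in all 4 SF3B1-WT libraries. Each share had a limma adjusted p of 0.902.

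SPTB, the beta spectrin of the red cell membrane, had an assembled form with 1 further intron of 56646 nt (SPTB.asm1) at 27.9 and 22.7 FPKM in the induced libraries and 0 in the other 6. MRPL21, of the mitochondrial ribosome, had NM_181514 at 71.1 and 48.6 in the uninduced libraries and 0 in the induced ones, where NM_181515, whose donor in 1 intron lies 13 nt downstream, was at 105 and 41.0. In induced replicate 2 of the K700E line an assembled form (MRPL21.asm1) with the donor of NM_181514 held 48.1% of the gene, at 38.0 FPKM. In 1 SF3B1-WT library, induced replicate 2, NM_181515 held 51.1% of the gene. GABRE, a subunit of a GABA receptor, had NM_004961 holding all of the gene in both uninduced libraries and none of it in the induced ones, but it was also at 0% in 3 of the 4 SF3B1-WT libraries and at 32.5% in the other.

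**Figure D5:**
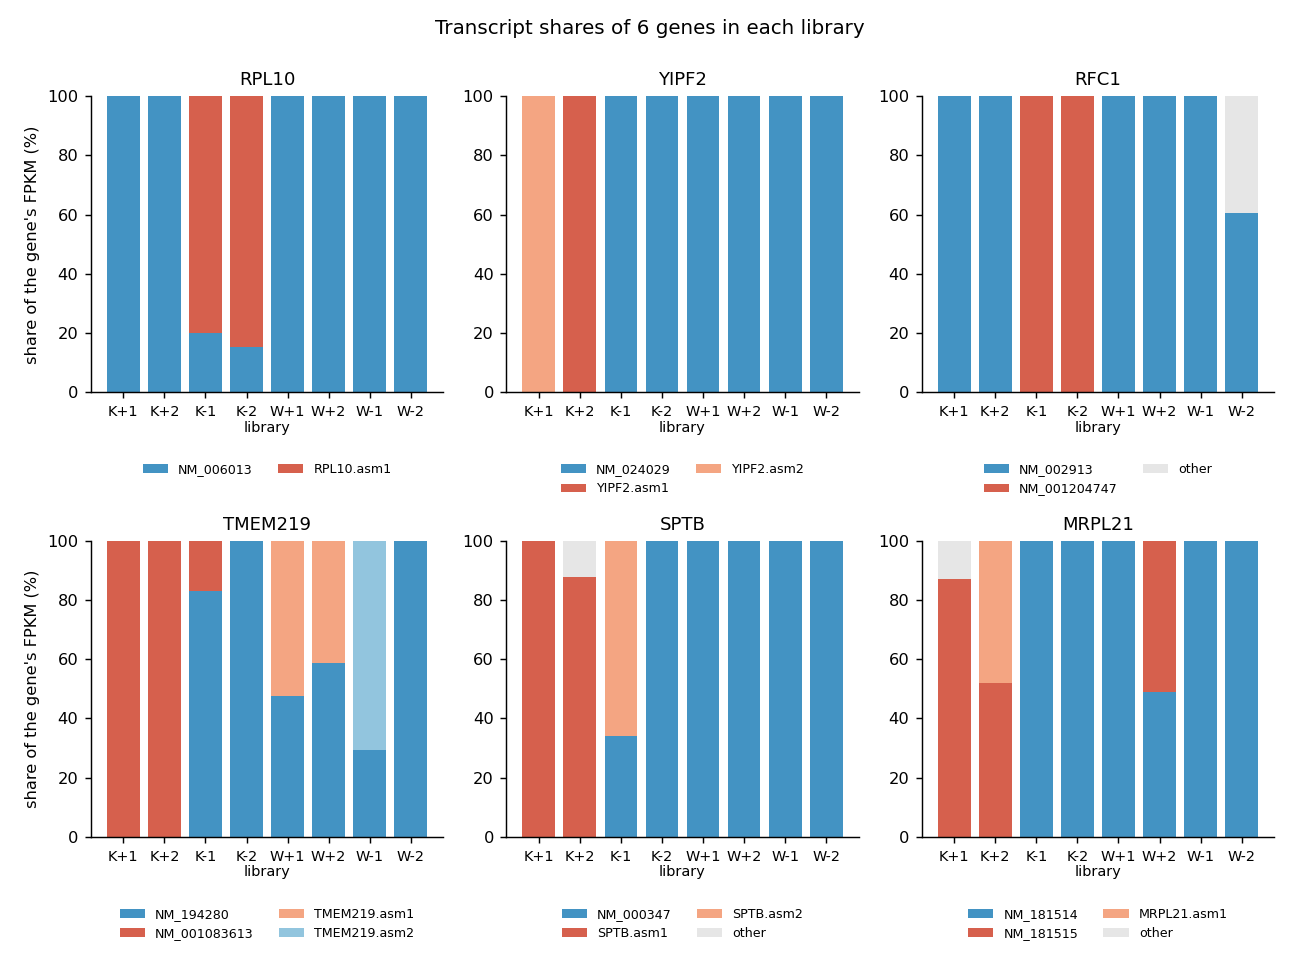
Share of the gene's FPKM, in percent, held by each transcript in each of the 8 libraries for 6 genes. K and W mark the K700E and SF3B1-WT lines, + and - induced and uninduced cells, and 1 and 2 the replicates. In RPL10 and RFC1 both K+ bars have one main colour and both K- bars another, and in YIPF2 the K+ bars hold an assembled form each while the other 6 bars hold the reference form.

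The other abundant switched genes were less settled. RPL15 had NM_002948 at 49.0% and 53.9% in the induced libraries and 43.0% and 31.2% in the uninduced ones. ANXA11, an annexin, had NM_145868 at 42.2% and 30.9% induced and 84.5% and 80.7% uninduced, and the SF3B1-WT libraries ranged from 13.9% to 72.7%. GAS5, DUS1L, TXN2, ATP2A3 and TCEB2 were also among the most abundant switched genes.

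The most abundant genes with more than 1 transcript kept their main form. RPL13A was held by NR_026712 at 85.5% and 87.8% in the induced and 85.6% and 84.2% in the uninduced libraries. RPLP0 had NM_001002 at 100% and 89.5% against 86.8% and 100%. RPL38 varied more, with NM_000999 at 68.7% and 100% against 80.1% and 69.9%. The copies of SNAR-A11, SNAR-B2 and SNAR-A14, short RNA polymerase III transcripts, share their sequence, and their shares say nothing of isoforms.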

How the data were processed

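RNA was sequenced in 8 libraries from K562 cells, 2 in each of 4 groups, after depletion of ribosomal RNA. Per the submitters' processing notes, CASAVA, TopHat and Cufflinks were used with the hg19 build. Their versions: not given in the sources used here. The values the authors deposited are FPKM for each reference and assembled transcript, with a 95% interval and a coverage. Read totals were not used here.

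Transcript FPKM was summed by gene, and assembled transcripts were given to the gene whose introns they share. Libraries were scaled to a common level, genes with a mean under 1 FPKM were left out, and log2(FPKM + 0.5) was fitted with limma 3.58.1 (R 4.3.3) over all 4 groups without covariates, with Benjamini-Hochberg adjustment. Transcript shares were fitted likewise for genes of 5 FPKM or more. Both fits were tested on simulated data. An exact permutation test of 2 against 2 libraries cannot go below p = 0.333.

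Named genes were SF3B1, called genes, the 20 most abundant, the 12 highest and 12 lowest fold changes of separate groups, the abundant and the most different members of each list, and the leading multi-isoform genes. Further list members, and the genes separate by 3 gene values, were named after their values were seen. The members and lists were chosen with earlier results of these data known. Alternatives were other pseudocounts, filters and scalings, reference transcripts alone, the K700E libraries alone, a replicate block and leaving out each library. Coverage times length and genes above 0 in all 8 libraries were added after seeing the data. Some items covered by the rule are not reported here.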

Additional observations from a re-analysis of the deposited data

Results flagged for a closer look

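The difference between K700E and SF3B1-WT induction passed limma's adjusted threshold for 2 genes (0.0176% of genes tested), both short RNAs. MIR4461 differed by 16.97 on the log2 scale (adjusted p = 0.00012), a fitted value against groups listed at 0, since it was above 0 in the 2 induced K700E libraries alone. VTRNA1-3, a vault RNA gene, differed by -18.04 (adjusted p = 0.019), since it was above 0 in the 2 induced SF3B1-WT libraries alone, at deposited values of 567932 and 32104 FPKM. Each of the 2 genes passed the filter only through the group where it was above 0, and the groups listed at 0 added no spread to the fit. With coverage times length as the gene value, 0 genes passed. VTRNA1-3 did not pass when any 1 of the 4 K700E libraries or either uninduced SF3B1-WT library was left out, or with reference transcripts alone, where MIR4461 and HSPA1B passed. MIR4461 did not pass without induced K700E replicate 1. The groups of 2 libraries are too small to look for single outlying samples.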

How the results depend on the processing

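These libraries limit the fit to large differences, since replicates differed about as much as groups. The 1 gene called became 2 with a pseudocount of 0.1 and 2 with reference transcripts alone, which added ACAT2 and YIPF2 in turn. It became 28 with no filter on low values (8 higher and 20 lower), and 0 with coverage times length, where 575 genes had an unadjusted p under 0.05. Leaving out 1 K700E library gave 4 to 7 genes, with MIR4461 in each. The difference between inductions gave 15 genes with no filter, 0 with coverage times length and 0 to 3 without 1 library. Transcript shares gave 0 to 3 calls without 1 library, with the 3 found without uninduced replicate 1, and 59 genes switched when a mean of 20 FPKM was required. Replicate numbers were shared by label only: deviations of equal numbers correlated at 0.04 in the K700E line and 0.10 in the SF3B1-WT line. The fit with a replicate block called 1 gene, 2 genes for the difference between inductions and 0 shares. Among list medians, iron was -0.036 over genes above 0 in all 8 libraries, and with reference transcripts alone the TCA cycle was 0.022, heme synthesis -0.072 and U2 factors 0.15. With coverage times length heme synthesis was 0.15 and U2 factors 0.13. Without 1 library the medians ran from 0.22 to 0.67 for histones, 0.19 to 0.41 for mitosis, 0.028 to 0.42 for the proteasome, 0.065 to 0.48 for CCT, 0.025 to 0.24 for heat shock, 0.0061 to 0.22 for large-subunit and -0.016 to 0.22 for small-subunit ribosomal genes. They ran from 0.12 to 0.25 for SR and hnRNP genes, -0.31 to -0.15 for the lysosome, -0.21 to -0.0064 for iron, -0.33 to -0.00076 for the TCA cycle, -0.12 to 0.094 for the respiratory chain, -0.54 to 0.39 for globins, -0.42 to -0.11 for the endoplasmic reticulum, -0.21 to -0.020 for glycolysis, 0.016 to 0.20 for erythroid factors, -0.057 to 0.34 for known SF3B1 targets and -0.12 to 0.16 for heme synthesis. Replication licensing ran from 0.28 to 0.44. Over 112 named genes, 1531 of the values under alternatives kept sign and side of the threshold, 34 took the other sign, 2 newly passed and 1 no longer passed. Reference transcripts alone gave the other sign for RPRD1A (-0.94), SYT5 (-0.50), NIPA1 (-1.08), MNF1 (-0.20), CCHCR1 (0.39), FTSJ1 (1.43), PCNA (-2.59), CDC45 (0.21), HIST1H3B (-5.18), RPL10 (1.22), RPL13 (-0.21), RPS19 (-1.07), RPL27A (0.43), HNRNPA2B1 (-1.23), SRSF5 (-0.070), PCBP2 (-1.46), HSPA5 (0.23), GPI (0.19), MCM3 (-0.50) and MCM5 (-0.047). NIPA1 was -0.21 with coverage times length. RPPH1, near 0 with all 8 libraries, was -0.0030 without scaling, -0.028 with upper quartile scaling and -0.00099 with coverage times length. Without 1 library it ran from -0.29 to 0.29, SF3B1 from -0.15 to 0.28, HBA1 from -0.20 to 0.61, RPS2 from -0.016 to 0.22, HIST1H1C from -0.12 to 0.39, MCM2 from -0.34 to 0.050 and MCM5 from -0.26 to 0.34. The cause of these shifts was not tested.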

Other observations

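Interferon-stimulated genes were split between both directions. Of 19 tested, 8 had a log2 fold change above 0, with a median of -0.25, and 2 were higher and 4 lower in both induced libraries. Over the 11 above 0 in all 8 libraries the median was 0.08, with 6 above 0. Genes of nonsense-mediated decay had 11 of 19 above 0 (median 0.15, -0.08 with reference transcripts alone and -0.11 with coverage times length), with 2 in each direction. Regulators of the G1 to S transition had 12 of 22 above 0 (median 0.04, -0.12 with reference transcripts alone and -0.02 with coverage times length), with 3 higher and 5 lower, and DNA repair genes had 10 of 26 above 0 (median -0.08), with 6 higher and 5 lower.

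Translation factors had 18 of 36 genes above 0 (median 0.0072, and -0.0071 with reference transcripts alone), with 7 higher and 9 lower in both induced libraries. Cholesterol synthesis, the pathway that ACAT2 feeds, had 13 of 24 above 0 (median 0.01), with 3 in each direction. No member of these 6 lists passed limma's adjusted threshold.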
